A study of Mus musculus with 55 samples.

Results

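The 28 genes described here encode the cholesterol synthesis pathway of the cell and the proteins that set its rate or move its product. They were taken by name from a list whose rule uses no measured value, although the list was drawn up with earlier results of these data known. It holds 7 genes of the mevalonate arm (Acat2, Hmgcs1, Mvk, Pmvk, Mvd, Idi1 and Fdps), 11 of the sterol arm (Fdft1, Sqle, Lss, Cyp51, Tm7sf2, Msmo1, Nsdhl, Hsd17b7, Ebp, Sc5d and Dhcr7), 5 of sterol control (Insig1, Insig2, Srebf1, Srebf2 and Scap) and 5 of sterol transport and turnover (Stard4, Abca1, Nr1h2, Cyp46a1 and Npc1). All 28 had a row among the 28492 genes with a symbol in the maturation experiment and among the 28216 in the stimuli experiment, and each was read from the transcript that held most of its counts. Levels are given as CPM, the count scaled to the total of the library. After the filter on low values (more than 5 CPM, there by the whole library total, in at least 2 samples) 27 of the 28 were tested. Idi1, the isopentenyl diphosphate isomerase, did not pass, with 114 counts over the whole maturation experiment and 105 over the stimuli experiment.

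The series measured transcripts by 3′-end sequencing (CEL-Seq2) in primary neuronal cultures from cortex and hippocampus of CD1 mouse embryos of both sexes, in 55 samples. The maturation experiment held 28 samples, taken at 7 days in vitro (7DIV) and at a mature stage called 21DIV in the titles and 23 DIV in the descriptions. They were basal or had spent 15 or 180 min in 55 mM KCl, which depolarises the membrane, or in 50 µM bicuculline (which blocks inhibitory GABA receptors) mixed with 2.5 mM 4-aminopyridine (which blocks potassium channels). Each of its groups had 3 samples, except both 21DIV bicuculline groups, with 2. The stimuli experiment held 27 samples, all 21DIV: basal (n = 3), 15, 45 or 180 min of KCl or of bicuculline without 4-aminopyridine (n = 2 each), silenced for 48 h in 1 µM tetrodotoxin (TTX, a blocker of voltage-gated sodium channels; n = 4), and 15, 45 or 180 min after TTX was withdrawn by exchanges of medium (TTXw; n = 3, 2 and 3). Neither KCl nor bicuculline was preceded by silencing. Control neurons are described as washed in the same way as the TTXw samples, and the sources do not say whether these controls are the TTX samples, the basal samples or both. These cultures hold glia beside neurons, and in bulk RNA fewer cells of a type and less RNA per cell cannot be told apart. Nothing in the labels says that the replicates came from separate cultures, so the p-values measure the spread between these samples, which may be technical.

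Cells build cholesterol from acetyl-CoA, first through mevalonate to farnesyl diphosphate and then, once squalene has formed, through a series of sterols. When the endoplasmic reticulum holds little sterol, the escort protein SCAP carries the SREBP factors to the Golgi for cleavage, and the released fragments switch on the synthesis genes, while INSIG proteins hold SCAP back when sterol is plentiful. Brain cholesterol is made within the brain, oligodendrocytes and astrocytes being large producers, and neurons dispose of an excess of it by hydroxylation.

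Promoter windows (from 250 bases before to 50 after the start of the transcript) from RefSeq on GRCm38.p6 were found for 23 of the 28 genes, as 31 windows. There was none for Fdps, Fdft1, Sqle, Stard4 and Npc1, which were not searched. Hmgcs1 and Insig1 hold a match to the letters searched for as the sterol regulatory element or its core. Cyp51 and Msmo1, sterol enzymes that passed after TTX withdrawal, hold no match to those letters. The sequences of these 4 genes are shown as examples. They are written 5′ to 3′ on the strand of the gene: Hmgcs1 (chr13:119690101-119690400, plus strand), Cyp51 (chr5:4104648-4104947, minus strand), Msmo1 (chr8:64733529-64733828, minus strand) and Insig1 (chr5:28071162-28071461, plus strand). Capitals mark every match, on either strand, to the sterol regulatory element letters TCACNCCAC or its core CACNCCAC, to the CCAAT box, or to the GC box GGGCGG.
Hmgcs1: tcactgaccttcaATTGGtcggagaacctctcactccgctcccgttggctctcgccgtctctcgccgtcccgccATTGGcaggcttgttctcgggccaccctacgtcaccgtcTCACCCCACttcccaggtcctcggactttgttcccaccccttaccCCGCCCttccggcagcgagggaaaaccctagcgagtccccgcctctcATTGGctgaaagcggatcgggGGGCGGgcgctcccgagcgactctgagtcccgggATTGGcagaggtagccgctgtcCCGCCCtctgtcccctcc
Cyp51: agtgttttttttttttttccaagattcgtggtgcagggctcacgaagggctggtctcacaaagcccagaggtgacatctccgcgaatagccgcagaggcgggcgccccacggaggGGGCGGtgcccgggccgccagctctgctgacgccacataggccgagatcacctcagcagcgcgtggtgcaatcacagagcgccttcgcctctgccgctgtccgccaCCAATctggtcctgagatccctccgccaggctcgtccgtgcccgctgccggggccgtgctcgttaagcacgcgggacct
Msmo1: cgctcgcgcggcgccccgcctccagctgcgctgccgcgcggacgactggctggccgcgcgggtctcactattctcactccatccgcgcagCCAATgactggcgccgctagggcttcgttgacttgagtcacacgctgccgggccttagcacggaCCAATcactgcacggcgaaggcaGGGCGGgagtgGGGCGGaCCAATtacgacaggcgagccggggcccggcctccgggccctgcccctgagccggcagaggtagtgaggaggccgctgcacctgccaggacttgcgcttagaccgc
Insig1: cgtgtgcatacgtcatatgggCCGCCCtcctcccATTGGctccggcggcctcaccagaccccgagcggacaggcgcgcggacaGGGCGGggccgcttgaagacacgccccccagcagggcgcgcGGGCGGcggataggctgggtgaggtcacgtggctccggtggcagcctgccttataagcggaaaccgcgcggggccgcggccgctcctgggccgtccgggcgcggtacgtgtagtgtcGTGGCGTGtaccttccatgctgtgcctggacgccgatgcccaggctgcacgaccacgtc

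The letters TCACNCCAC occurred in the window of 1 of the 23 genes, Hmgcs1, as TCACCCCAC beginning at -137 from the start site. They occurred in 1.44% of all 27025 genes with a window (1.24% of all 32851 windows). The core CACNCCAC, which every TCACNCCAC match also contains, occurred in 3 of the 23 genes, Acat2, Hmgcs1 and Insig1. Among all genes with a window the share was 7.12% (6.24% of all windows). CCAAT was present in 20 of the 31 windows (19 genes), against 37.4% of all windows, and GGGCGG in 25 of the 31 (21 genes), against 35.7%. In Msmo1 CCAAT began at -160, -96 and -55, and in Cyp51 a single CCAAT began at -29. Only the letters given were searched, so a sterol regulatory element spelled otherwise is not marked or counted. The matches describe the letters of the windows only, since no binding was measured.

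Samples of the maturation experiment held 1659722 to 4474968 counts at 7DIV and 1784170 to 14012872 at 21DIV, and those of the stimuli experiment 1177500 to 3909487. In the text below a gene is said to rise or fall where its adjusted p (edgeR quasi-likelihood test, Benjamini-Hochberg adjustment over all genes tested) was under 0.05 and its change at least 1.5-fold, and SE is the standard error of a log2 fold change. Whether the samples of 2 groups overlap is given as a description only, since the share of all genes without overlap was not counted. Markers of other cell types differed between the groups compared. From basal 7DIV to basal 21DIV, 10 of 11 astrocyte markers rose (summed level 595 to 867.1 CPM against 4665 to 5688 CPM; Gjb6 was at 0 in the 7DIV samples), as did 10 of 10 oligodendrocyte lineage markers (474.1 to 750.8 against 2519 to 3323 CPM; Mobp was at 0 at 7DIV). Under TTX 11 of 11 astrocyte markers were higher than in basal samples (2638 to 3241 against 7442 to 8494 CPM) and 7 of 10 oligodendrocyte lineage markers (822.6 to 1270 against 2292 to 2330 CPM; Mobp was at 0 in the basal samples). Neuron markers rose in 6 of 8 and fell in 2 between the stages (4305 to 4632 against 5452 to 6608 CPM) and fell in 1 of 8 under TTX (5216 to 5376 against 4300 to 4833 CPM). Of the microglia markers 1 could be tested between the stages, and it fell (summed 10.42 to 17.17 against 4.292 to 8.472 CPM; P2ry12 and C1qa were at 0 at 7DIV), and 1 of 2 fell under TTX (7.163 to 9.303 against 2.661 to 4.065 CPM). None of the 6 vessel and fibroblast markers passed the filter, at 0 to 9.04 CPM summed in these groups. The part of these cells in the results on sterol genes was not tested. Of 6 stimulation markers, such as Fos and Npas4, 5 fell under TTX (median log2 fold change -1.59), and 2 rose and 3 fell between the basal stages. After 180 min at 7DIV 4 rose with KCl and 0 with bicuculline and 4-aminopyridine. With KCl for 180 min at 21DIV 4 rose and 1 fell in the maturation experiment, and 5 rose in the stimuli experiment. At that time 5 rose with bicuculline and 4-aminopyridine at 21DIV, 6 with bicuculline alone and 3 after TTX withdrawal.

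The first comparison asked how the resting level of the pathway differs between young and mature cultures. From basal 7DIV to basal 21DIV 10 of the 27 tested genes fell and 6 rose. There were 9 positive and 18 negative log2 fold changes, with a median of -0.29. All 10 that fell were enzymes of synthesis, 5 of 6 in the mevalonate arm (median log2 fold change -1.12) and 5 of 11 in the sterol arm (median -0.53). The 6 that rose were 2 of 5 control genes and 4 of 5 genes of transport and turnover. Over all 10510 genes tested between the stages 33.1% passed in either direction and 14.9% fell, with a median of 0.01. Of these genes 1908 rose and 1569 fell. Stages were compared on the 3 basal samples of each alone, and the labels do not say whether both stages came from one culture. Their sample codes begin with A or B at 7DIV and with C or D at 21DIV, so stage and code cannot be told apart.

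**Figure D1:**
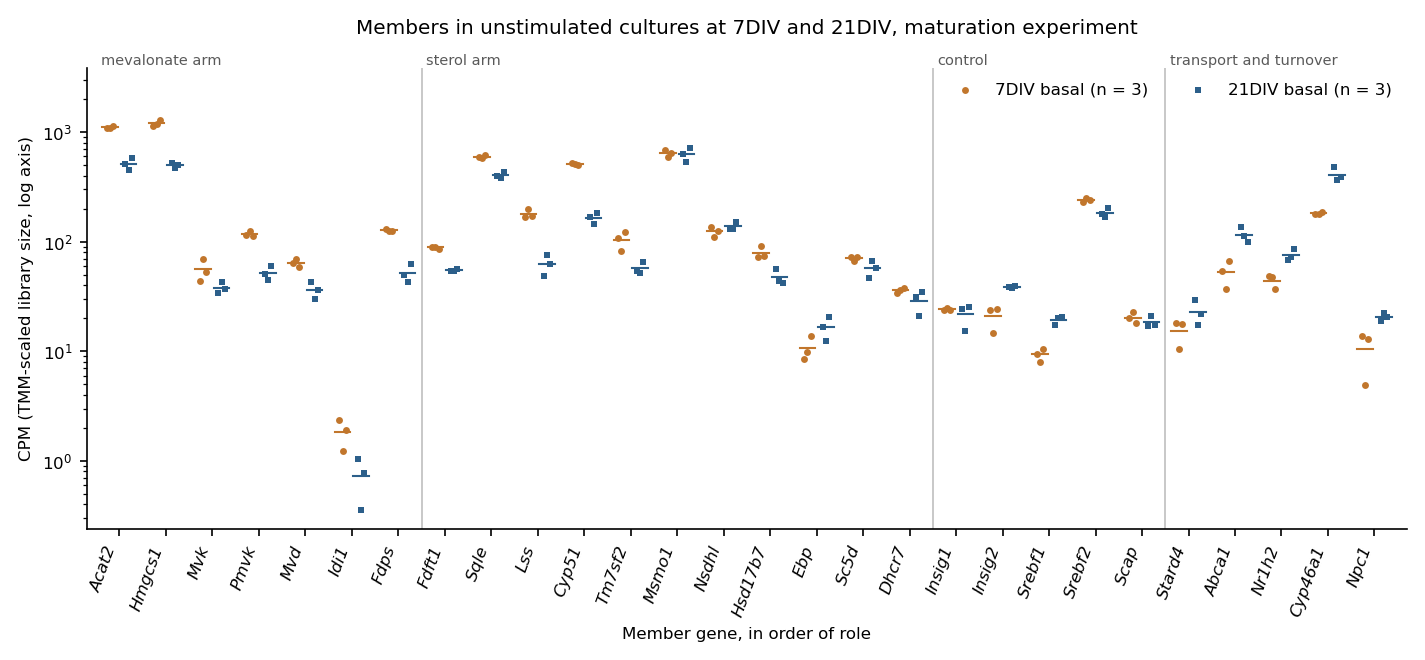
Level of each of the 28 genes in the basal samples of the maturation experiment, in CPM on a log axis, 3 points at 7DIV and 3 at 21DIV. Cyp51 lies between 496 and 517 CPM at 7DIV and between 145 and 184 CPM at 21DIV, whereas Cyp46a1 lies at 178 to 185 CPM and at 365 to 476 CPM, and the points of Msmo1 at both stages are intermixed.

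In the mevalonate arm, Hmgcs1, the synthase that makes HMG-CoA, was at 1145, 1190 and 1280 CPM in the 7DIV samples and at 527, 469.6 and 504 CPM in the 21DIV samples. The groups did not overlap, and the level at 21DIV was 2.36-fold lower (log2 fold change -1.24, SE 0.11, edgeR adjusted p = 1.58e-06). Acat2, the thiolase that starts the pathway from acetyl-CoA, fell from 1083, 1092 and 1146 CPM to 507, 453 and 585 CPM, a change of 2.11-fold (log2 fold change -1.08, SE 0.12, edgeR adjusted p = 1.1e-05). Fdps, which makes farnesyl diphosphate, was at 131, 126 and 125 CPM at 7DIV and at 49.8, 43.1 and 62.9 CPM at 21DIV. Its change was 2.39-fold (log2 fold change -1.26, SE 0.16, edgeR adjusted p = 4.69e-05), the largest in this arm.

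Both enzymes that turn phosphorylated mevalonate into isopentenyl diphosphate fell as well. Pmvk, the phosphomevalonate kinase, was at 116, 124 and 113 CPM at 7DIV and 50.5, 44.4 and 59.5 CPM at 21DIV (log2 fold change -1.16, SE 0.16, edgeR adjusted p = 6.62e-05). Mvd, the diphosphomevalonate decarboxylase, was at 63.5, 68.7 and 59.05 CPM against 42.4, 29.9 and 36.1 CPM (log2 fold change -0.79, SE 0.18, edgeR adjusted p = 0.00374). Mvk, the mevalonate kinase, did not pass, at 44.05, 69.9 and 53.1 CPM against 34.1, 42.7 and 37.0 CPM, although its groups did not overlap (log2 fold change -0.52, SE 0.2, edgeR adjusted p = 0.0541). Idi1 was too low to test, at 2.37, 1.23 and 1.90 CPM at 7DIV and 1.04, 0.358 and 0.774 CPM at 21DIV.

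In the sterol arm the change was largest at lanosterol. Lss, the cyclase that makes lanosterol, was at 167, 198 and 171 CPM at 7DIV and 48.1, 75.1 and 62.5 CPM at 21DIV, 2.83-fold lower (log2 fold change -1.5, SE 0.17, edgeR adjusted p = 1.49e-05). Cyp51, the lanosterol demethylase, was at 517, 510.3 and 496 CPM against 166, 145 and 184 CPM. Its fall of 3.02-fold (log2 fold change -1.59, SE 0.13, edgeR adjusted p = 6.15e-07) was the largest of the 27 genes, and no 21DIV sample came near the 7DIV range.

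Msmo1, the sterol methyl oxidase that acts after Cyp51, did not pass, at 684, 598 and 648 CPM at 7DIV and 629, 538 and 721 CPM at 21DIV, groups that overlapped throughout (log2 fold change 0.00, SE 0.13, edgeR adjusted p = 0.982). The remaining sterol enzymes fell less or did not pass. Tm7sf2, a sterol reductase, fell 1.81-fold (log2 fold change -0.86, SE 0.17, edgeR adjusted p = 0.0015), Hsd17b7, a sterone reductase, 1.63-fold (-0.71, SE 0.18, edgeR adjusted p = 0.00611) and Fdft1, the squalene synthase, 1.58-fold (-0.66, SE 0.15, edgeR adjusted p = 0.00284). Sqle, the squalene epoxidase, had an edgeR adjusted p of 0.00234 but a change of 1.44-fold, under the minimum (586, 583 and 621 CPM against 401, 382 and 436 CPM). Nsdhl, Ebp, Sc5d and Dhcr7, which complete the removal of methyl groups and the shifts of double bonds, had log2 fold changes of 0.17, 0.63, -0.29 and -0.27, with edgeR adjusted p-values of 0.364, 0.11, 0.211 and 0.355.

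Among the control genes Srebf1 and Insig2 rose. Srebf1, which encodes the SREBP form best known for fatty acid genes, was at 9.47, 7.97 and 10.6 CPM at 7DIV and 17.5, 20.2 and 20.4 CPM at 21DIV, 2.08-fold higher (log2 fold change 1.05, SE 0.26, edgeR adjusted p = 0.00532). Insig2 was at 23.7, 14.7 and 24.1 CPM against 38.6, 37.7 and 38.95 CPM, 1.84-fold higher (log2 fold change 0.88, SE 0.22, edgeR adjusted p = 0.00548). Neither gene had an overlap between the stages. Srebf2, which encodes the SREBP form best known for cholesterol genes, went from 229, 249.6 and 239 CPM to 178, 169 and 203 CPM, a 1.28-fold difference with an edgeR adjusted p of 0.0415 that stayed under the minimum. Insig1 and Scap had log2 fold changes of -0.11 and -0.09 (edgeR adjusted p = 0.745 and 0.782).

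Of the 5 genes of sterol transport and turnover 4 rose. Cyp46a1, the cholesterol hydroxylase of neurons, was at 178, 179 and 185 CPM at 7DIV and 476, 365 and 388 CPM at 21DIV, 2.31-fold higher (log2 fold change 1.21, SE 0.13, edgeR adjusted p = 1.06e-05). Abca1, the exporter that loads sterol onto lipoprotein particles, was at 54.5, 36.8 and 67.2 CPM against 135, 112 and 98.8 CPM (log2 fold change 1.12, SE 0.2, edgeR adjusted p = 0.000655). Nr1h2, the oxysterol receptor LXR beta, was at 48.3, 47.2 and 36.6 CPM against 67.6, 71.7 and 86.2 CPM (log2 fold change 0.82, SE 0.18, edgeR adjusted p = 0.00267). For all of these 3 genes every 21DIV sample was above every 7DIV sample. Npc1, which releases sterol from lysosomes, was at 13.7, 4.91 and 13.0 CPM against 18.7, 22.4 and 20.4 CPM (log2 fold change 0.93, SE 0.31, edgeR adjusted p = 0.0289). It no longer passed without 7DIV replicate 3 (the sample at 4.91 CPM), 21DIV replicate 2 or 21DIV replicate 3, with an edgeR adjusted p of up to 0.0864, nor with summed transcripts (edgeR adjusted p = 0.0629). Stard4, a carrier of sterol between membranes, did not pass (18, 10.4 and 17.6 CPM against 29.2, 17.4 and 21.9 CPM, edgeR adjusted p = 0.122).

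The next comparison asked what prolonged silencing does to the pathway in mature cultures. Transcripts of 12 of the 17 tested synthesis enzymes were lower. In all, 17 of the 27 genes fell and 2 rose in the 4 TTX samples against the 3 basal samples, with 20 negative and 7 positive log2 fold changes and a median of -0.93. All 6 tested genes of the mevalonate arm fell (median -1.35), and 6 of 11 in the sterol arm (median -1.06), 3 of 5 in control and 2 of 5 in transport. Over all 12027 genes 21.6% passed in either direction and 10.8% fell, with a median of 0. Basal and TTX samples are labelled as separate groups of one experiment, and the labels do not say whether they shared a culture. Where only the TTX samples were washed, TTX and fresh medium cannot be told apart in this comparison.

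**Figure D2:**
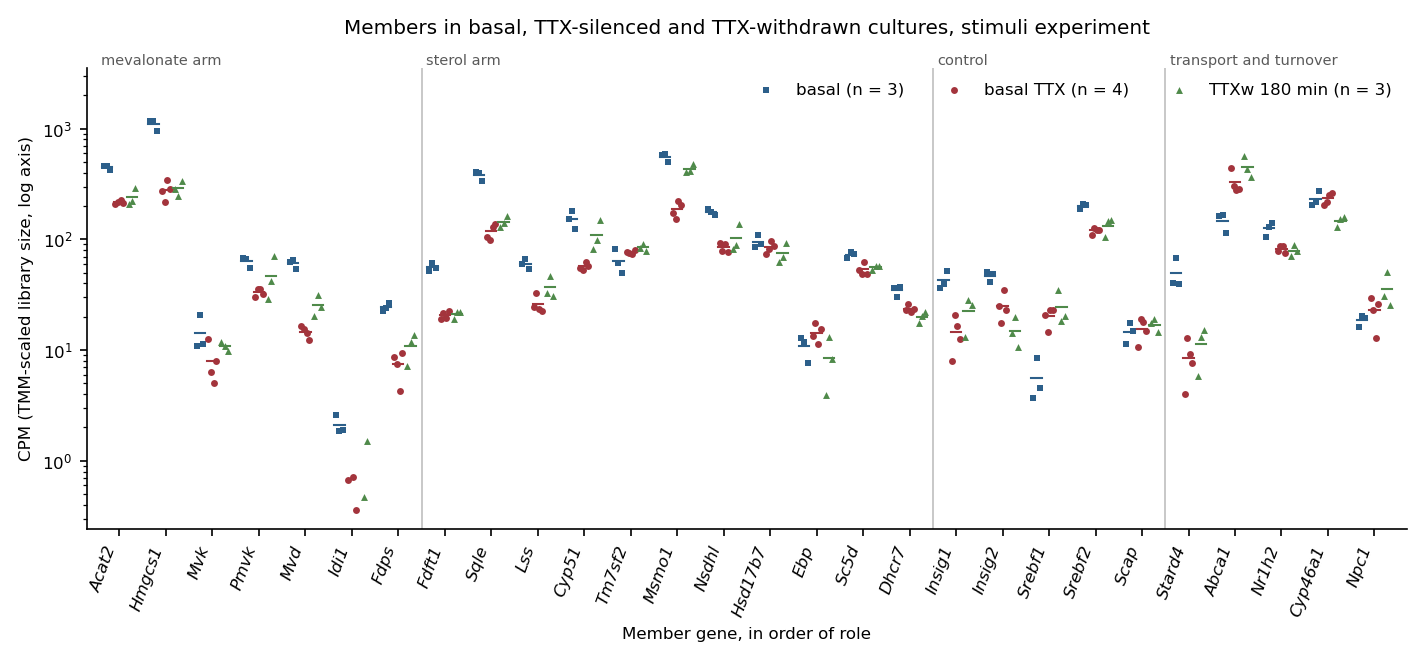
Level of each of the 28 genes in the stimuli experiment, in CPM on a log axis, in basal samples (n = 3), after 48 h in TTX (n = 4) and 180 min after its withdrawal (n = 3). Hmgcs1 lies at 958 to 1184 CPM in basal samples and at 217 to 343 CPM in TTX, and after withdrawal Msmo1 lies above its TTX points whereas Hmgcs1 remains among them. A value of 0 (Idi1 in 1 TTX sample and 1 TTXw sample) cannot be drawn on the log axis.

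Hmgcs1 was at 1184, 1167 and 958 CPM in the basal samples and at 275, 217, 343 and 284 CPM in TTX. The 2 groups lay far apart, with a fall of 3.95-fold (log2 fold change -1.98, SE 0.12, edgeR adjusted p = 1.03e-15). Mvd, at 62.5, 65.5 and 54.6 CPM against 16.6, 15.7, 14.3 and 12.3 CPM, fell 4.19-fold (log2 fold change -2.07, SE 0.18, edgeR adjusted p = 1.3e-11). Fdps was at 22.6, 24.2 and 26.9 CPM against 8.65, 7.55, 4.29 and 9.40 CPM, 3.14-fold lower (log2 fold change -1.65, SE 0.24, edgeR adjusted p = 1.14e-06). In none of these did a TTX sample reach the lowest basal sample.

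Acat2 was at 459, 463 and 423 CPM against 208, 219, 226 and 214 CPM, 2.07-fold lower (log2 fold change -1.05, SE 0.11, edgeR adjusted p = 6.71e-10). Pmvk was at 68.5, 66.2 and 55.0 CPM against 29.9, 35.4, 35.8 and 31.8 CPM (log2 fold change -0.93, SE 0.17, edgeR adjusted p = 4.12e-05). Mvk overlapped between the groups, at 10.9, 20.8 and 11.4 CPM against 12.6, 6.39, 5.01 and 7.96 CPM. Its fall (log2 fold change -0.83, SE 0.28, edgeR adjusted p = 0.0196) no longer passed without TTX replicate 2 or 3 or basal replicate 2 (edgeR adjusted p up to 0.252), nor with the replicate number as a block (-0.92, edgeR adjusted p = 0.0542). Idi1 was at 2.58, 1.86 and 1.90 CPM in basal samples and at 0.665, 0, 0.715 and 0.362 CPM in TTX, levels of a few counts that were not tested.

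In the sterol arm, Sqle, which adds the oxygen to squalene, was at 403, 398 and 336 CPM in basal samples and 104, 99.3, 130.2 and 138 CPM in TTX. This was a fall of 3.2-fold (log2 fold change -1.68, SE 0.13, edgeR adjusted p = 1.02e-12) with no overlap. Msmo1 fell 2.95-fold (log2 fold change -1.56, SE 0.12, edgeR adjusted p = 2.34e-13), from 574, 588 and 501 CPM to 175, 153, 222 and 203 CPM. Cyp51 was at 152, 181 and 123 CPM against 55.2, 53.4, 62.9 and 57.1 CPM, 2.66-fold lower (log2 fold change -1.41, SE 0.15, edgeR adjusted p = 1.42e-09). No TTX sample of the 3 genes came near the basal range, Msmo1 included, which had overlapped between the stages.

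Fdft1 was at 51.9, 61.4 and 55.7 CPM against 19.3, 21.5, 19.3 and 22.4 CPM (log2 fold change -1.43, SE 0.16, edgeR adjusted p = 6.52e-09), and Lss at 60.2, 65.9 and 54.6 CPM against 24.6, 33.1, 23.6 and 22.4 CPM (-1.22, SE 0.18, edgeR adjusted p = 1.51e-06). Nsdhl, a decarboxylase of methylsterols, was at 187, 175 and 165 CPM against 93.8, 78.4, 90.8 and 77.4 CPM (-1.06, SE 0.13, edgeR adjusted p = 2.02e-08). The 3 genes had no overlap between groups. The later enzymes Sc5d, a sterol desaturase, and Dhcr7, a dehydrocholesterol reductase, had edgeR adjusted p-values of 0.0194 and 0.0152 but changes of 1.37-fold and 1.46-fold, under the minimum. Tm7sf2, Hsd17b7 and Ebp had log2 fold changes of 0.25, -0.16 and 0.42 (edgeR adjusted p = 0.229, 0.38 and 0.306).

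Of the control genes, Insig1, itself a well-known SREBP target, was at 36.7, 39.5 and 52.3 CPM in basal samples and 7.98, 20.9, 16.4 and 12.7 CPM in TTX, a fall of 2.95-fold (log2 fold change -1.56, SE 0.26, edgeR adjusted p = 8.41e-06). Insig2 was at 51.3, 40.9 and 48.9 CPM against 25.3, 17.4, 35.05 and 23.1 CPM (log2 fold change -0.93, SE 0.19, edgeR adjusted p = 0.000254). Srebf2 was at 190.0, 209.5 and 204 CPM against 110.4, 128, 122 and 122 CPM (log2 fold change -0.73, SE 0.11, edgeR adjusted p = 2.19e-06). Each of the 3 fell in every TTX sample below every basal sample. Srebf1 went the other way, at 3.73, 8.56 and 4.55 CPM against 20.6, 14.5, 22.9 and 23.1 CPM, 3.68-fold higher (log2 fold change 1.88, SE 0.32, edgeR adjusted p = 1.02e-05). Scap had a log2 fold change of 0.11 (edgeR adjusted p = 0.756).

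Stard4 showed the largest change of the 27 genes, from 40.4, 68.1 and 39.4 CPM in basal samples to 3.99, 12.8, 9.30 and 7.59 CPM in TTX, 5.81-fold lower (log2 fold change -2.54, SE 0.31, edgeR adjusted p = 1.93e-08). Abca1 rose, from 161, 166 and 113 CPM to 444, 306, 278 and 287 CPM (log2 fold change 1.16, SE 0.15, edgeR adjusted p = 1.31e-07), with no overlap. Nr1h2 was at 105, 130.2 and 141 CPM against 78.5, 87.7, 86.5 and 74.8 CPM (log2 fold change -0.62, SE 0.14, edgeR adjusted p = 0.000479). Its fall dropped under 1.5-fold without TTX replicate 4 or basal replicate 5 (log2 fold change of -0.53 at the nearest to 0). With the replicate block it was -0.44 (edgeR adjusted p = 0.0526). Cyp46a1 (log2 fold change 0.03) and Npc1 (0.31) did not pass, with edgeR adjusted p-values of 0.886 and 0.339. Abca1 and Srebf1, both higher in TTX, moved in the same direction as the astrocyte markers given above, whose part in them was not tested.

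TTX was then withdrawn by exchanges of medium. Where the TTX samples were not washed in the same way, the end of silencing and fresh medium cannot be told apart in these comparisons. At 15 min and at 45 min 0 of the 27 genes passed by edgeR and 0 by DESeq2, and 1 and 0 had an unadjusted p under 0.05, against 0% and 0.382% of all genes passing. By 180 min 4 genes had risen and 2 had fallen against the TTX samples, and 14% of all genes passed. There were 21 positive and 6 negative log2 fold changes, with a median of 0.25. Over all genes 51.2% were positive, with a median of 0.015. The astrocyte markers rose further at that time (5 of 11, 10910 to 15250 CPM summed), 7 oligodendrocyte lineage markers rose (3318 to 4109 CPM; Mobp was at 0 in the TTXw samples) and 4 of 8 neuron markers fell (2717 to 3184 CPM). Their part in the values below was not tested.

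Msmo1 rose the most of the sterol enzymes, to 403, 417 and 484 CPM against 175, 153, 222 and 203 CPM in TTX, 2.31-fold (log2 fold change 1.21, SE 0.12, edgeR adjusted p = 7.66e-10). It had been at 183, 158 and 149 CPM after 15 min and 226 and 218 CPM after 45 min, levels near the TTX range, whereas all of the 180 min samples were above every TTX sample. Cyp51 was at 81.1, 98.9 and 151 CPM against 55.2, 53.4, 62.9 and 57.1 CPM (log2 fold change 0.94, SE 0.16, edgeR adjusted p = 3.36e-05). Mvd was at 20.3, 31.7 and 24.3 CPM against 16.6, 15.7, 14.3 and 12.3 CPM (log2 fold change 0.84, SE 0.22, edgeR adjusted p = 0.00413). It did not pass without TTXw replicate 2 (edgeR adjusted p = 0.0996).

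Most of the other enzymes did not pass at that time. Hmgcs1 was at 286, 247 and 339 CPM 180 min after withdrawal, within the TTX range (log2 fold change 0.05, SE 0.13, edgeR adjusted p = 0.833), and Sqle, at 128, 140.0 and 162 CPM, did not pass either (0.27, edgeR adjusted p = 0.196). Pmvk was at 28.8, 42.1 and 70.6 CPM, 1 sample standing above the other 2 (0.48, edgeR adjusted p = 0.0664). All 6 tested mevalonate genes had positive values (median 0.46), of which 1 passed. Insig1, at 13.1, 28.4 and 25.8 CPM, had a log2 fold change of 0.65 with an SE of 0.3 (edgeR adjusted p = 0.126), and Stard4, at 5.89, 13.2 and 15.2 CPM, one of 0.45 (edgeR adjusted p = 0.508). How the change of one gene differed from that of another was not tested.

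Cyp46a1 fell after withdrawal, to 129.5, 152 and 160.2 CPM against 205, 220.1, 252 and 262 CPM (log2 fold change -0.68, SE 0.12, edgeR adjusted p = 7.54e-05), all 3 samples below every TTX sample. Insig2 was at 14.4, 19.9 and 10.6 CPM against 25.3, 17.4, 35.05 and 23.1 CPM (log2 fold change -0.67, SE 0.25, edgeR adjusted p = 0.0463). Its call was lost without any of TTX replicates 1, 3 and 4 or TTXw replicates 1 and 3 (edgeR adjusted p up to 0.19), with the replicate block (-0.72, edgeR adjusted p = 0.073) and with the compared groups only (edgeR adjusted p = 0.0824). Npc1, at 30.8, 50.6 and 25.8 CPM against 29.3, 23.2, 12.9 and 26.04 CPM, had groups that overlapped (log2 fold change 0.66, SE 0.23, edgeR adjusted p = 0.0352). It did not pass without TTX replicate 2 or 3 or TTXw replicate 2 (edgeR adjusted p up to 0.515), the last of which takes the log2 fold change to 0.29. The Npc1 call was also lost with DESeq2 (adjusted p = 0.0586), with summed transcripts (edgeR adjusted p = 0.0767) and with the compared groups only (edgeR adjusted p = 0.0784). Abca1 had an edgeR adjusted p of 0.017 and a change of 1.39-fold, under the minimum.

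**Figure D3:**
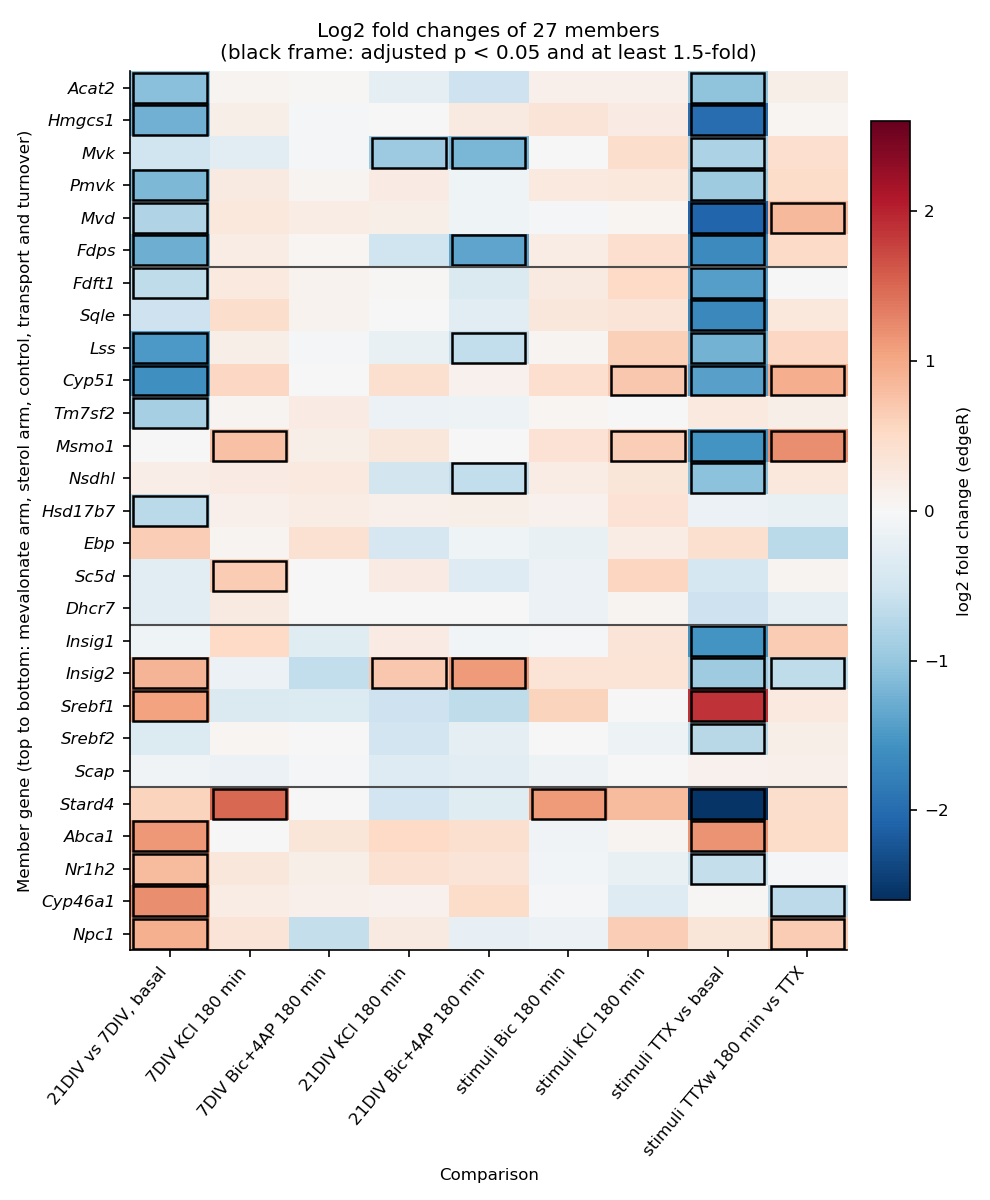
Log2 fold change of the 27 tested genes, as a colour map with 1 row per gene and 1 column per comparison. Among the comparisons are basal 21DIV against 7DIV, TTX against basal and TTXw 180 min against TTX. Black frames mark an adjusted p under 0.05 with at least 1.5-fold. Cyp51 lies at -1.59 between the stages, at -1.41 in TTX and at 0.94 after withdrawal, whereas Msmo1 lies at 0.00, -1.56 and 1.21. The TTX samples are shared by 2 of the comparisons, and basal samples are shared by others, so their values are not independent.

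Stimulation of 7DIV cultures moved few of the genes past the threshold. After 15 min of KCl, 15 min of bicuculline with 4-aminopyridine and 180 min of bicuculline with 4-aminopyridine, 0 of the 27 passed by edgeR or by DESeq2, and 1 gene in each had an unadjusted p under 0.05. Of all 11746 genes 0% passed in each of these 3 comparisons. After 180 min of KCl 3 of the 27 rose and 0 fell, against 1.98% of all genes. There 23 of the 27 log2 fold changes were positive (median 0.2), including 11 of 11 in the sterol arm. Over all genes 50% were positive (median 0). The KCl and bicuculline groups of an experiment and stage were compared with the same basal samples, so their values are given side by side. Within a stage they were set against each other only at 180 min in the stimuli experiment.

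Msmo1 was at 1059, 1136 and 1085 CPM after 180 min of KCl at 7DIV, against 684, 598 and 648 CPM in basal samples (log2 fold change 0.76, SE 0.11, edgeR adjusted p = 0.00013). All 3 treated samples lay above all basal ones, and this call stood in every alternative fit run. Sc5d was at 107, 112 and 119 CPM against 73.0, 66.9 and 72.9 CPM (log2 fold change 0.67, SE 0.16, edgeR adjusted p = 0.0214). It did not pass when any library of either group other than KCl replicate 1 was left out (edgeR adjusted p up to 0.0988) or with the replicate block (0.7, edgeR adjusted p = 0.0842). Stard4 was at 51.9, 29.4 and 50.5 CPM against 18, 10.4 and 17.6 CPM (log2 fold change 1.49, SE 0.33, edgeR adjusted p = 0.0132). It did not pass without basal replicate 3, KCl replicate 1 or KCl replicate 3 (edgeR adjusted p up to 0.0825) or with the block (1.55, edgeR adjusted p = 0.0732). Without 1 library the count of genes passing went down to 1 of 27. In the same comparison 1 of 11 astrocyte markers rose (895.4 to 1204 CPM summed), and its part was not tested. Cyp51, at 688, 796 and 725 CPM against 517, 510.3 and 496 CPM, had an edgeR adjusted p of 0.0782 (log2 fold change 0.54, SE 0.16).

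At 21DIV, 1 of the 27 genes passed after 15 min of KCl and 2 after 180 min. Over all genes 50.1% of the log2 fold changes were positive at 15 min. After 15 min of KCl 1 gene fell (6.23% of all genes passed), with 8 positive and 19 negative log2 fold changes: Stard4, at 8.57, 14.3 and 9.08 CPM against 29.2, 17.4 and 21.9 CPM (log2 fold change -1.13, SE 0.32, edgeR adjusted p = 0.0229). It did not pass without basal replicate 1 or 3 or KCl replicate 1 or 3 (edgeR adjusted p up to 0.12), nor with summed transcripts (edgeR adjusted p = 0.0688). At 15 min 1 astrocyte marker rose (4216 to 4784 CPM summed) and 1 oligodendrocyte lineage marker fell (2033 to 2259 CPM), and their part was not tested. After 180 min of KCl 1 gene rose and 1 fell, against 4.89% of all genes. Insig2 rose to 53.7, 70.1 and 64.2 CPM from 38.6, 37.7 and 38.95 CPM (log2 fold change 0.71, SE 0.17, edgeR adjusted p = 0.0113; 0.088 without KCl replicate 2). Mvk fell to 25.9, 12.9 and 20.5 CPM from 34.1, 42.7 and 37.0 CPM (log2 fold change -0.94, SE 0.24, edgeR adjusted p = 0.0174; up to 0.168 without basal replicate 2 or 3 or KCl replicate 2 or 3, and 0.0548 with the compared groups only). Neither gene overlapped with its basal samples. Among glial markers 0 of 11 for astrocytes passed and 2 for oligodendrocytes fell (1314 to 1791 CPM summed). With KCl at 21DIV in the stimuli experiment 18 log2 fold changes were positive and 9 negative at 15 min. The lowest of the 27 there was -0.36 at 15 min and -0.34 at 180 min, so neither Stard4 nor Mvk fell in that experiment. The 2 experiments were not tested against each other.

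Bicuculline with 4-aminopyridine changed 0 of the 27 genes at 15 min by edgeR or DESeq2 (2 with an unadjusted p under 0.05; 0.0511% of all genes passed) and 5 at 180 min, 1 higher and 4 lower, against 14.2% of all genes. There were 7 positive and 20 negative log2 fold changes, with a median of -0.13. Over all genes 48.4% were positive, with a median of -0.021. Fdps fell to 20.4 and 19.8 CPM from 49.8, 43.1 and 62.9 CPM (log2 fold change -1.37, SE 0.24, edgeR adjusted p = 0.000161). Insig2 rose to 91.2 and 74.1 CPM from 38.6, 37.7 and 38.95 CPM (log2 fold change 1.11, SE 0.19, edgeR adjusted p = 0.000128). Both stood in every alternative fit, with no sample of one group inside the other. With bicuculline alone at 180 min, in the stimuli experiment, the lowest log2 fold change was -0.04 in the mevalonate arm and -0.19 in the sterol arm. The highest of the control genes there was 0.58, and 0 genes of these 3 lists passed. The 2 experiments were not tested against each other.

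The other enzymes that fell after 180 min of bicuculline with 4-aminopyridine were less certain. Mvk was at 13.1 and 20.6 CPM (log2 fold change -1.19, SE 0.28, edgeR adjusted p = 0.00428; 0.151 without bicuculline replicate 2). Nsdhl was at 76.6 and 101 CPM against 130.2, 131 and 152 CPM (log2 fold change -0.64, SE 0.17, edgeR adjusted p = 0.0094; up to 0.223 without basal replicate 3 or bicuculline replicate 2). Lss was at 39.4 and 40.1 CPM against 48.1, 75.1 and 62.5 CPM (log2 fold change -0.64, SE 0.21, edgeR adjusted p = 0.0322; up to 0.189 without basal replicate 2 or 3 or either bicuculline replicate, and 0.0728 with the compared groups only). Without 1 library the count over the 27 genes ranged from 2 to 6. In the same comparison 3 of 11 astrocyte markers fell (summed 1772 to 3415 CPM against 4665 to 5688 CPM in basal samples), 4 oligodendrocyte lineage markers fell and 2 rose (1185 to 1789 CPM), and 3 of 8 neuron markers fell (4744 to 5040 CPM). Their part was not tested.

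Whether the 180 min change itself differed between the stages was tested as an interaction. For bicuculline with 4-aminopyridine 4 of the 27 genes passed at an adjusted p under 0.05, 1 higher and 3 lower at 21DIV, against 4.95% of all genes. Insig2, at 11.3, 14.1 and 15.4 CPM in stimulated 7DIV samples against 23.7, 14.7 and 24.1 CPM basal, differed by 1.75 (log2, SE 0.28, edgeR adjusted p = 0.000478). Fdps, at 130.1, 129 and 138 CPM against 131, 126 and 125 CPM at 7DIV, differed by -1.43 (SE 0.3, edgeR adjusted p = 0.00619). Both differences stood in every fit run. Nsdhl differed by -0.9 (SE 0.23, edgeR adjusted p = 0.0188) and Acat2 by -0.57 (SE 0.16, edgeR adjusted p = 0.0325), and these were lost without 3 and 7 of the 11 libraries in turn (edgeR adjusted p up to 0.169 and 0.161). For Nsdhl those were 7DIV bicuculline replicate 3, 21DIV basal replicate 3 and 21DIV bicuculline replicate 2. For Acat2 they were 7DIV basal replicates 2 and 3, 7DIV bicuculline replicates 1 and 3, 21DIV basal replicate 3 and both 21DIV bicuculline samples. The difference of Nsdhl was also lost with the replicate block (-0.88, edgeR adjusted p = 0.0551), and that of Acat2 with the compared groups only (edgeR adjusted p = 0.0513).

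For KCl 1 of the 27 genes passed the interaction test and 0.775% of all genes did. Stard4, which rose at 7DIV and had a log2 fold change of -0.49 at 21DIV (edgeR adjusted p = 0.397), differed by -1.97 (SE 0.46, edgeR adjusted p = 0.0313). It was lost without any of 8 of the 12 libraries, namely all 3 of 7DIV basal, 7DIV KCl replicates 1 and 3, 21DIV basal replicate 3 and 21DIV KCl replicates 2 and 3 (edgeR adjusted p up to 0.101), and with the replicate block (-2.03, edgeR adjusted p = 0.0753) or summed transcripts (edgeR adjusted p = 0.073). Insig2 had a difference of 0.85 (SE 0.27, edgeR adjusted p = 0.129).

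**Figure D4:**
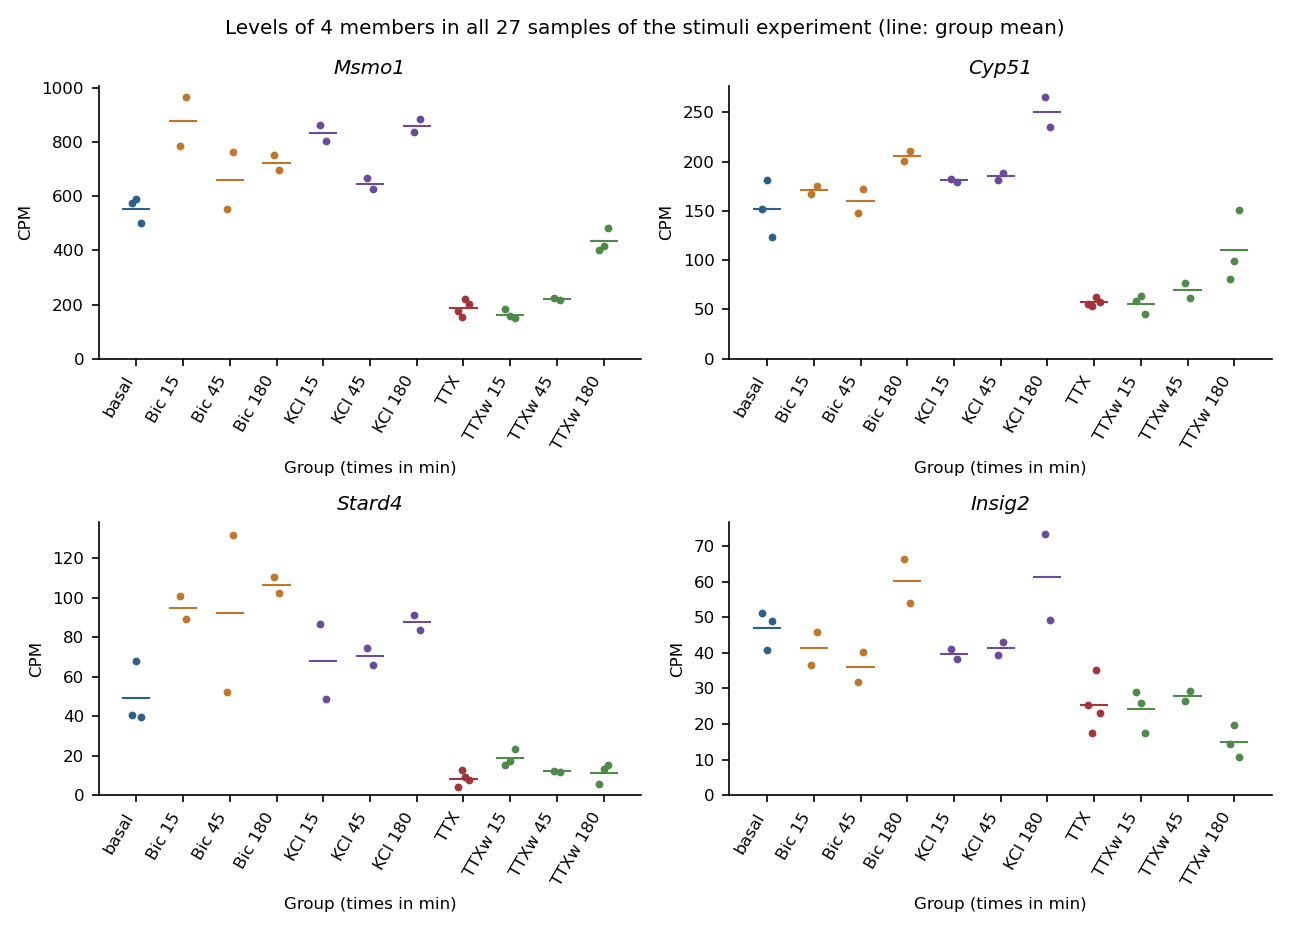
Level of Msmo1, Cyp51, Stard4 and Insig2 in every sample of the stimuli experiment, in CPM on a linear axis, by group and time after stimulation. Msmo1 lies at 501 to 588 CPM in basal samples, at 837 and 884 CPM after 180 min of KCl and at 153 to 222 CPM in TTX, and Stard4 is lowest in the silenced samples, at 3.99 to 12.8 CPM.

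In the stimuli experiment, where mature cultures received bicuculline alone, 2 of the 27 genes rose and 0 fell at 15 min (3.42% of all genes passed), 2 rose and 1 fell at 45 min (7.45%) and 1 rose at 180 min (0.765%). Stard4 passed at each time in the fit to all samples, at 100.8 and 89.1 CPM at 15 min, 52.4 and 132 CPM at 45 min and 110.2 and 102 CPM at 180 min, against 40.4, 68.1 and 39.4 CPM. At 45 min 1 of the samples lay in the basal range. The log2 fold changes were 0.96, 0.93 and 1.11 (SE 0.27, 0.26 and 0.25) with edgeR adjusted p-values of 0.0283, 0.0159 and 0.0119. The call was lost at every time without basal replicate 1 or 5 or the bicuculline replicate 2 and, at 15 and 180 min, bicuculline replicate 3 (edgeR adjusted p up to 0.274, 0.902 and 0.182). With the block the values were 0.7, 0.76 and 0.84 (edgeR adjusted p = 0.308, 0.105 and 0.42). At 45 min the log2 fold change of Stard4 was 0.12 without bicuculline replicate 2. None of the 3 calls stood with DESeq2 (adjusted p = 0.162, 0.126 and 0.234) or with summed transcripts (edgeR adjusted p = 0.143, 0.11 and 0.255).

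Msmo1 was at 787 and 966 CPM after 15 min of bicuculline, against 574, 588 and 501 CPM (log2 fold change 0.66, SE 0.13, edgeR adjusted p = 0.00207; 0.071 without bicuculline replicate 3, and 0.0834 with the block). It was at 554 and 765 CPM after 45 min, where 1 of the samples lay in the basal range. Srebf1 was at 14.8 and 12.8 CPM after 45 min against 3.73, 8.56 and 4.55 CPM (log2 fold change 1.31, SE 0.37, edgeR adjusted p = 0.0177). Dhcr7 was at 18.8 and 23.4 CPM against 36.7, 30.1 and 37.1 CPM (-0.71, SE 0.2, edgeR adjusted p = 0.0225). Both of the last were lost without basal replicate 1 or 5 or either bicuculline sample (edgeR adjusted p up to 0.115 and 0.26) and with the block (1.21 and -0.65, edgeR adjusted p = 0.0799 and 0.0986). Srebf1 was lost with summed transcripts too (edgeR adjusted p = 0.0501), and Dhcr7 with DESeq2 (adjusted p = 0.0525) and with no filter (edgeR adjusted p = 0.0675). Glial markers were higher beside these calls than the 2638 to 3241 CPM (astrocyte) and 822.6 to 1270 CPM (oligodendrocyte lineage) of the basal samples. At 15 min of bicuculline 2 of 11 astrocyte markers rose (summed 4553 to 4869 CPM) with 2 of 10 oligodendrocyte lineage markers (1335 to 1436 CPM), and at 45 min 6 (5214 to 5912 CPM) and 4 (1396 to 1619 CPM). At both times 2 of 8 neuron markers rose too. At 180 min 0 markers of these 3 lists passed (astrocyte 3125 to 3475 CPM, oligodendrocyte lineage 1061 to 1109 CPM). Their part in the values of Stard4, Msmo1, Srebf1 and Dhcr7 was not tested. The sample codes of the bicuculline and KCl groups begin with B at 15 and 45 min and with A at 180 min. Basal samples have both letters, and the part of this split was not tested.

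KCl raised 1 of the 27 genes at 15 min (7.22% of all genes passed), 0 at 45 min (0.765%; 0 by edgeR, 0 by DESeq2 and 0 with an unadjusted p under 0.05) and 2 at 180 min (0.765%). At 180 min 23 of the 27 log2 fold changes were positive, with a median of 0.31, among them all 11 of the sterol arm. Over all genes 48.6% were positive, with a median of -0.012. Msmo1 was at 862 and 805 CPM after 15 min (log2 fold change 0.59, SE 0.13, edgeR adjusted p = 0.003) and 837 and 884 CPM after 180 min (0.63, SE 0.13, edgeR adjusted p = 0.0134), with 668 and 626 CPM in between at 45 min. All 6 values lay above the basal ones. The call at 15 min fell under 1.5-fold without basal replicate 5 or KCl replicate 1 (log2 fold change of 0.52 at the lowest) and in the block fit (0.52). At 15 min 4 of 11 astrocyte markers rose (4779 to 4813 CPM summed), as did 4 of 10 oligodendrocyte lineage markers (1461 to 1612 CPM) and 2 of 8 neuron markers, and their part was not tested. The call of Msmo1 at 180 min was lost without basal replicate 5 or either KCl sample (edgeR adjusted p up to 0.139), with the block (0.57, edgeR adjusted p = 0.0746) and with summed transcripts (edgeR adjusted p = 0.0564).

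Cyp51 was at 266 and 235 CPM after 180 min of KCl against 152, 181 and 123 CPM (log2 fold change 0.71, SE 0.17, edgeR adjusted p = 0.024). The call was lost without basal replicate 1 or 5 or either KCl sample (edgeR adjusted p up to 0.362), with the block (0.59, edgeR adjusted p = 0.164) and with summed transcripts (edgeR adjusted p = 0.106). Stard4, at 91.2 and 83.8 CPM, did not pass (0.83, SE 0.27, edgeR adjusted p = 0.159). Set directly against each other at 180 min, bicuculline and KCl differed in 0 of the 27 genes by edgeR and 0 by DESeq2, with 3 at an unadjusted p under 0.05 and 0.723% of all genes passing. After 180 min of KCl 0 of 11 astrocyte markers passed (3630 to 3647 CPM summed) and 2 oligodendrocyte lineage markers fell (657.2 to 676.5 CPM), and their part was not tested.

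Neighbouring pathways, taken from lists of their own, are given here as counts, with no test against the 28 genes. Of 12 fatty acid synthesis genes 2 rose and 2 fell between the stages and 3 rose and 1 fell in TTX. Between the stages the log2 fold changes were 1.92 for Scd1, a fatty acyl desaturase, 1.77 for Me1, the malic enzyme that supplies NADPH, -0.78 for Elovl6, a fatty acid elongase, and -0.70 for Fasn, the fatty acid synthase. In TTX they were 0.82 for Mid1ip1, an activator of acetyl-CoA carboxylase, -0.66 for Acly, which supplies cytosolic acetyl-CoA, and 0.60 each for Scd2, a desaturase, and Elovl5, an elongase. Of 8 genes of the isoprenoid branch, which draws on farnesyl diphosphate, 0 passed in either comparison. Of 6 SREBP processing genes 2 fell between the stages (Mbtps2, a protease of SREBP, -0.66, and Erlin2 -0.63) and 1 in TTX (Erlin1, -0.65). Of 13 further genes of sterol and lipoprotein transport 1 rose and 2 fell between the stages and 1 rose and 5 fell in TTX. Between the stages Abcg1, an exporter, had 2.56, Lrp8, a lipoprotein receptor of neurons, -1.10 and Gramd1a, a sterol carrier, -0.97. In TTX the largest changes were -1.03 for Lrp8, -0.86 for Mylip, which marks lipoprotein receptors for degradation, 0.81 for Soat1, which esterifies cholesterol, and -0.70 for Osbp, an oxysterol-binding protein.

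Several of the loci share bases with another gene, and the sources used here do not state whether counting kept the strands apart. Fdft1 overlaps Ctsb by 774 bases, Npc1 overlaps Rmc1 by 8982 and Srebf1 overlaps Rai1 by 114. Mvd, Lss and Insig1 overlap long non-coding RNAs. Acat2 overlaps a pseudogene by 634 bases and has a near-identical paralog. Reads of these genes may be divided or joined and their levels are uncertain to that extent.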

How the data were processed

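CEL-Seq2 libraries of 55 samples in 2 experiments were analysed. The authors aligned reads with STAR to mm10 and deposited raw counts per RefSeq transcript from ESAT (End Sequence Analysis Toolkit). Whether molecular identifiers were collapsed, and whether strand was used, is not given in the sources used here. Accessions were matched, ignoring versions, to RefSeq symbols (80.8% and 80.9% of rows, with 18.5% and 19.2% of the counts left unmatched), and the transcript with most counts stood for a gene. Each experiment was normalised separately (TMM) and tested in edgeR 4.0.16 (R 4.3.3) by the quasi-likelihood test with Benjamini-Hochberg adjustment, after keeping genes over 5 CPM in at least 2 samples. Basal stages were fitted on 6 samples and the other comparisons on all 28 or 27. Genes passed at an adjusted p under 0.05 and at least 1.5-fold (interactions on adjusted p alone). All 28 members were named, and of every other list up to 4 genes past the threshold with the largest changes. The members and gene lists were chosen with earlier results of these data known. The fits were tested on simulated data. Alternatives were the likelihood ratio test, DESeq2 1.42.0, its size factors, no filter, a replicate block, summed transcripts, other sample sets and leaving out each sample. Tables and figures used Python 3.11.15, pandas 2.3.3, numpy 2.4.6 and matplotlib 3.10.9. Some genes of the pathway are not reported here.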

Additional observations from a re-analysis of the deposited data

Results flagged for a closer look

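The change after 180 min of stimulation differed between 21DIV and 7DIV, by a test of the difference itself (edgeR interaction, adjusted p under 0.05), for Stard4 with KCl (-1.97 on the log2 scale) and for 4 genes with bicuculline and 4-aminopyridine: Acat2 (-0.57), Fdps (-1.43), Nsdhl (-0.90) and Insig2 (1.75). Both tests share the basal samples of each stage. In the silenced samples, the only group of 4, the 27 tested genes were examined for a sample standing apart from the others, and 0 had one.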

How the results depend on the processing

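Of 66 member values that passed over the 22 comparisons, 40 passed in every fit run and 0 changed sign. The counts of genes that passed moved by over 1.5 times as follows. For KCl at 15 min at 21DIV the count of 1 became 3 with the likelihood ratio test, with DESeq2 and with no filter, 2 with the compared groups only and 0 with summed transcripts, and for KCl at 180 min at 21DIV 2 became 1 with the compared groups only. With DESeq2 the counts for bicuculline alone at 15, 45 and 180 min were 1, 1 and 0 in place of 2, 3 and 1. With summed transcripts they were 1, 1 and 0, the count for KCl at 180 min in the stimuli experiment was 0 in place of 2, and the KCl interaction was 0 in place of 1. With the compared groups only KCl at 180 min in the stimuli experiment gave 4, and bicuculline against KCl at 180 min gave 1, as did the likelihood ratio test, in place of 0. TTXw at 15 min gave 1 in place of 0 with no filter. The cause of these moves was not tested. With the replicate number as a block 1 gene passed in place of 3 for KCl at 180 min at 7DIV, and 0 passed for the KCl interaction, for bicuculline alone at 15, 45 and 180 min and for KCl at 15 and 180 min in the stimuli experiment. The numbers were not shown to pair the samples: where 3 pairs existed, correlations of same-numbered deviations ran from -0.247 to -0.066 for KCl at 180 min at 21DIV, -0.004 to 0.1 at 15 min, -0.046 to 0.027 for TTXw at 15 min and 0.051 to 0.09 at 180 min, with 0 of 6, 3 of 6, 3 of 6 and 6 of 6 samples closest to their own number. Where 2 pairs existed in the stimuli experiment, 4 of 4 were closest for TTX against basal (0.041 to 0.057) and for bicuculline at 45 min (0.022 to 0.023). For KCl it was 0 of 4 at 15 min, 1 of 4 at 45 min and 2 of 4 at 180 min, and for TTXw at 45 min 0 of 4. Without 1 sample in turn the counts ranged from 1 to 2 for KCl at 180 min at 7DIV, 0 to 3 for KCl at 15 min and 0 to 2 at 180 min at 21DIV, 2 to 6 for bicuculline with 4-aminopyridine at 180 min at 21DIV, 0 to 1 for the KCl interaction and 2 to 4 for the bicuculline interaction. In the stimuli experiment they ranged from 0 to 3, 0 to 3 and 0 to 1 for bicuculline at 15, 45 and 180 min and from 0 to 1 and 0 to 2 for KCl at 15 and 180 min, where a group left with 1 sample was assumed to vary like the others. Between the stages 15 to 17 passed without 1 sample, in TTX 18 to 19 and after withdrawal at 180 min 4 to 7. At 1177500 counts in the shallowest sample, genes near 5 CPM such as Mvk, Srebf1 and Ebp rest on few counts.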
